A study of Mus musculus with 6 samples.

Results

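The genes that load the replicative helicase onto origins, open the fork and copy the DNA were followed in a cultured mouse sarcoma line, labelled as undifferentiated pleomorphic sarcoma (UPS). The set was a named list of 39 genes, chosen by function and matched by symbol to the 55471 genes of the count table, and all 39 had enough counts to be tested. The tested libraries were 3 from the Setd1a knockout derivative and 3 from the wild-type control of the same line, both labelled as metastatic cells and grown in serum-containing medium. UPS is a soft-tissue sarcoma, and Setd1a encodes a histone methyltransferase of the COMPASS family. Sample titles also carry a code that is not explained (AAV2 in all controls, another in all knockouts), and it divides the libraries as the genotype does, so code and genotype cannot be told apart. The labels do not say whether a group was 1 clone or a pool or how the replicates were made. The p-values therefore cover the spread among these 6 libraries alone, which may be technical.

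DNA replication is prepared in G1, when the origin recognition complex, Cdc6 and Cdt1 load a double ring of the MCM helicase onto DNA. At the start of S phase Cdc45 and the GINS complex join the ring and turn it into an active helicase, and DNA polymerase alpha with primase lays down primers. The clamp loader RFC then places the sliding clamp PCNA, on which polymerases delta and epsilon copy the strands. Many of these genes are classical targets of the E2F factors and are expressed in proliferating cells such as tumour lines.

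Each library held from 17749533 to 18272622 counts, and 13044 genes were tested. Levels are given as CPM, counts scaled to the size of each library, and levels compared between genes as CPM per kilobase of exon. For that length the exons of all annotated isoforms of a gene were joined. The targeted transcript, Setd1a (chromosome 7, 127776670 to 127800122 of GRCm38, plus strand), held 53.2, 68.7 and 56.3 CPM in the knockout libraries, against 71.0, 75.3 and 73.5 CPM in the control libraries. The groups did not overlap, with the knockouts lower (exact two-sided permutation p = 0.1, the smallest that 3 against 3 allows). The log2 change was -0.30 ± 0.12 (SE; edgeR adjusted p = 0.426), and 52.3% of its exonic bases are shared with other genes, so its level is uncertain. The labels do not say which part of the gene was altered. Of 10 mesenchymal markers, 9 passed the low-count filter and the 10 together summed to 7597 to 8799 CPM in the knockout libraries and 8656 to 9182 CPM in the controls. Macrophage, endothelial, T cell and epithelial markers summed to at most 28.2, 5.02, 1.13 and 121 CPM in any library. The defining macrophage gene Adgre1, the endothelial gene Cldn5 and the T cell genes Cd3e, Cd4 and Cd8a had 0 counts in all libraries. Some other markers on these lists were counted in every library. The macrophage markers Cd14 and Cd68 held 11.5 to 14.8 and 6.9 to 13.6 CPM. The endothelial marker Cdh5 held at most 2.32 CPM and the T cell marker Lck at most 1.13 CPM. Epithelial markers summed to 72.2 to 121 CPM in the knockout libraries and 63.8 to 104 CPM in the controls. Of the 6 tested, 3 were called higher with the replicate block, against 1.43% of all tested genes. Without the block 0 were called (smallest edgeR adjusted p = 0.18). The part of epithelial markers in the values below was not tested. In bulk RNA, fewer cells of a kind and less RNA per cell cannot be told apart.

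No replication gene differed detectably between the knockout and the control libraries. None of the 39 passed an adjusted p under 0.05 in edgeR's quasi-likelihood test (0 higher and 0 lower, with 0% of all tested genes called in either direction; smallest adjusted p among the 39, 0.343). At an unadjusted p under 0.05, 0 were higher and 3 were lower, which is 7.69% of the list against 4.51% of all tested genes (5.5% were higher). A fit with the replicate number as a block called 1.43% of all tested genes higher and 0.851% lower, and again 0 of the 39 (smallest adjusted p = 0.064). In that fit 4 members were lower and 0 higher at an unadjusted p under 0.05, against 9.62% of all tested genes lower and 9.94% higher. The 95% intervals of the test without the block were narrow. For 38 of the 39 genes the interval of the log2 change excluded a difference of 1.5-fold in either direction, against 60.9% of all tested genes, and the exception was Rfc4. The replication genes were also better counted than most, since 34 of the 39 lay above the median tested gene of 25.8 CPM and the smallest count of any member in any library was 215 reads.

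Small differences in 1 direction were common. The log2 change lay below 0 for 29 of the 39 genes, or 74.4%, against 49.8% of all tested genes, and the median change was -0.04 against 0.000662 for all tested genes. It was below 0 in all 3 pairs of like-numbered libraries for 12 genes, or 30.8%, against 21.6% of all tested genes. In pairs 1, 2 and 3 it was below 0 for 22, 29 and 27 of the 39 genes. Over all 13044 tested genes these counts were 6506, 6605 and 6801. The genes share the same 6 libraries and are not independent. The 39 genes together took 0.442%, 0.445% and 0.428% of all counts in the knockout libraries, against 0.447%, 0.462% and 0.451% in the controls. In 7 genes the knockouts all lay below the controls, which is 17.9% of the list against 7.77% of all tested genes. These were Mcm7, Rfc2, Rfc5, Pold2, Rpa2, Lig1 and Rrm1. No member had all knockouts above all controls, against 7.49% of all tested genes.

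**Figure D1:**
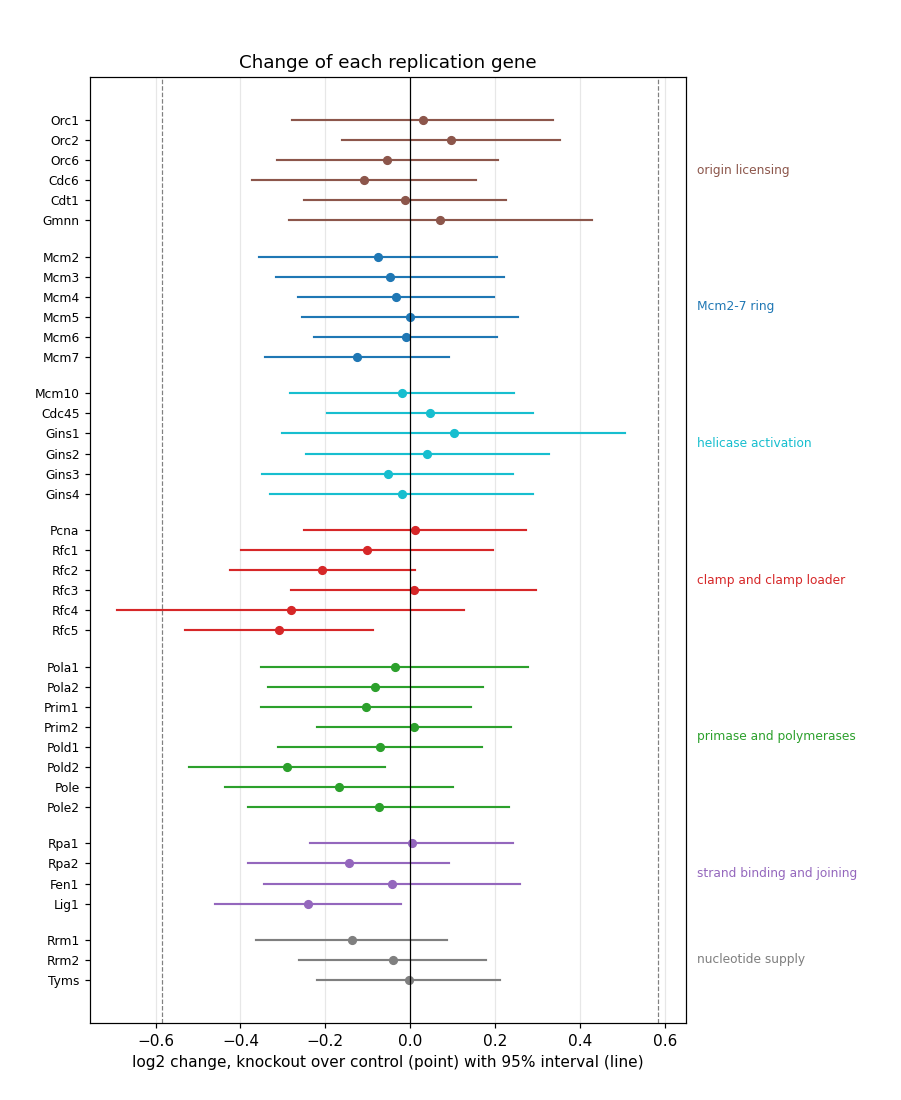
Log2 change of each of the 39 replication genes, knockout over control, from edgeR's quasi-likelihood test without the block (point) with its 95% interval (line), grouped by role. Dashed lines mark a 1.5-fold difference. Only the interval of Rfc4 crosses a dashed line, and those of Rfc5, Pold2 and Lig1 lie wholly below 0.

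Start sites of 31 of the 39 genes were matched to RefSeq promoter windows of GRCm38.p6, which hold 250 bases before and 50 after a start. The others were Gins1, Gins2, Gins4, Mcm4, Rfc2, Pole, Gmnn and Prim2. The windows were searched on both strands for the E2F-type octamers TTTGGCGC, TTTCCCGC, TTTGCCGC and TTTCGCGC and for the CCAAT box, the letters bound by NF-Y. An E2F-type octamer was found for 13 of 31 replication genes (41.9%), against 2.6% of the 27025 genes with a window. CCAAT was found for 21 of 31 (67.7%), against 41.1%. Unlike the background of the other comparisons, these windows include genes that were not tested here. Octamers on opposite strands can overlap, as they do in Mcm5 and Mcm6. The 4 runs below are shown to set 2 MCM genes with octamers, whose groups overlapped, beside the 2 genes with the smallest raw p, which have none in their windows. They were picked for that contrast, which does not hold across the list: Lig1 and Mcm7 have an octamer, and their groups did not overlap. All are given 5′ to 3′ on the strand of the gene and end before both the RefSeq and the GENCODE start, and capitals mark every octamer or CCAAT box on either strand. They are Mcm5 (chr8:75109259-75109508, plus strand), Mcm6 (chr1:128359706-128359955, minus strand), Rfc5 (chr5:117389048-117389273, minus strand) and Pold2 (chr11:5878293-5878506, minus strand).
Mcm5: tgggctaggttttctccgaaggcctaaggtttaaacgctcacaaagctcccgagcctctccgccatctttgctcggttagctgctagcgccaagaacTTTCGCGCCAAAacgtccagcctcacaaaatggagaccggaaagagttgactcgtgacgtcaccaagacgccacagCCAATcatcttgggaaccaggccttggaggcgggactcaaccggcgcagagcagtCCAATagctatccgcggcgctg
Mcm6: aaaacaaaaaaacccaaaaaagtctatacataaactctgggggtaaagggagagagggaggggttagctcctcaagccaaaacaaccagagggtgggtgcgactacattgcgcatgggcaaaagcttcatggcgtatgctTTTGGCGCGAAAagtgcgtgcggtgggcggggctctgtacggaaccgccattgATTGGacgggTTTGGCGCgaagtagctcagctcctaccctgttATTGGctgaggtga
Rfc5: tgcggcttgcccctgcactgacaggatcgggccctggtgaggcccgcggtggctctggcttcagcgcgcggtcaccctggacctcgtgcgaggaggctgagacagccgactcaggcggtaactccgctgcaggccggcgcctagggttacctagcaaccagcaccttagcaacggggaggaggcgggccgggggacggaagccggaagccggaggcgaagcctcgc
Pold2: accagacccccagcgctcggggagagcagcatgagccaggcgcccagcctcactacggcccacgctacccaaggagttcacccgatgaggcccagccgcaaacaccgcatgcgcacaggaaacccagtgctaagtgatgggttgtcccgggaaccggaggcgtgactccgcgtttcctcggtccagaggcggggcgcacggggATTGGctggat
In Mcm5 the capitals that begin at base -153 from the start are TTTCGCGC overlapping TTTGGCGC read on the other strand. Mcm6 has the same kind of overlapping pair at -110 and a single octamer at -47, and both genes have CCAAT boxes closer to the start than the overlapping pair. The 13 genes with an octamer had a median log2 change of -0.05 and 11 of them lay below 0. The 18 genes without one had a median of -0.07 and 14 lay below 0. Of the 21 genes with a CCAAT box 15 lay below 0 (median -0.04), and of the 10 without one 10 lay below 0 (median -0.08). None of these splits was tested.

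The licensing genes did not differ detectably. Orc1, an ATP-binding subunit of the origin recognition complex that is made anew in each cycle, averaged 20.0 ± 2.38 CPM in the knockouts and 19.6 ± 1.77 CPM in the controls (SD, n = 3 each). Orc2, a core subunit, had a log2 change of 0.10 ± 0.12 (SE), and Orc6, the smallest subunit, -0.05 ± 0.12 (SE). About 29.8% of the exonic bases of Orc2 are shared with the antisense gene Nif3l1, at 60.7 CPM, and the counting's strand setting is not given in the sources used here, so its level is uncertain. Cdc6, an ATPase that helps bring the helicase to the origin, held 56.8, 62.8 and 52.7 CPM in the knockout libraries, against 55.7, 68.5 and 61.7 CPM in the controls. The groups overlapped. Cdt1, which carries the MCM ring to the origin, averaged 89.3 ± 9.22 CPM in the knockouts and 90.0 ± 1.94 CPM in the controls (SD, n = 3 each). Its inhibitor geminin, encoded by Gmnn, averaged 17.7 ± 2.86 CPM in the knockouts and 16.9 ± 2.24 CPM in the controls (SD, n = 3 each). In all 6 licensing genes the edgeR adjusted p was at least 0.871, and the intervals of their log2 changes lay between -0.37 and 0.43.

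The 6 genes of the MCM ring, the motor of the replicative helicase, showed small differences. Mcm2 held 217, 257 and 196 CPM in the knockout libraries, against 223, 261 and 223 CPM in the controls. Mcm3 held 277, 306 and 243 CPM in the knockout libraries, against 256, 309 and 289 CPM in the controls. Mcm4 held 208, 213 and 193 CPM in the knockout libraries, against 196, 227 and 204 CPM in the controls. In these 3 genes the groups overlapped, and replicate 2 was the highest of its group on both sides. Mcm5 held 188, 203 and 175 CPM in the knockout libraries, against 168, 210 and 188 CPM in the controls, and its group means were both 189 CPM. Mcm6 held 294, 283 and 298 CPM in the knockout libraries, against 294, 281 and 307 CPM in the controls. Both overlapped between groups, but replicate 2 was the highest for Mcm5 and the lowest for Mcm6. Mcm7 held 221.8, 220.5 and 220.0 CPM in the knockout libraries, against 225, 243 and 254 CPM in the controls, so its groups did not overlap, by a margin of a few CPM. Its log2 change was -0.12 ± 0.10 (SE; edgeR adjusted p = 0.772, or 0.407 with the block), and 12.6% of its exonic bases are shared with other genes. The log2 changes of the ring ran from -0.12 for Mcm7 to -0.000253 for Mcm5, with intervals between -0.36 and 0.26.

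Although the ring holds 1 copy of each subunit, its transcripts were not at equal levels per length. Over the 6 libraries Mcm3 averaged 74.6 CPM per kilobase, Mcm6 62.8, Mcm4 57.7, Mcm7 52.1, Mcm5 47.3 and Mcm2 33.0. The library ranges of neighbours in that order overlapped down to Mcm5, and the range of Mcm2, 28.2 to 37.5 CPM per kilobase, lay apart from that of Mcm5, 42.2 to 52.6 CPM per kilobase. Exon lengths here join all annotated isoforms of a gene, so the level of a gene with rarely used exons is understated. For Mcm2 the joined length was 6956 bases, while its longest transcript has 3494. For Mcm5 these lengths were 3993 and 3381 bases. For Mcm7 they were 4426 and 2962 bases. The order within the ring, with Mcm2 below Mcm5, therefore depends on the length used.

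**Figure D2:**
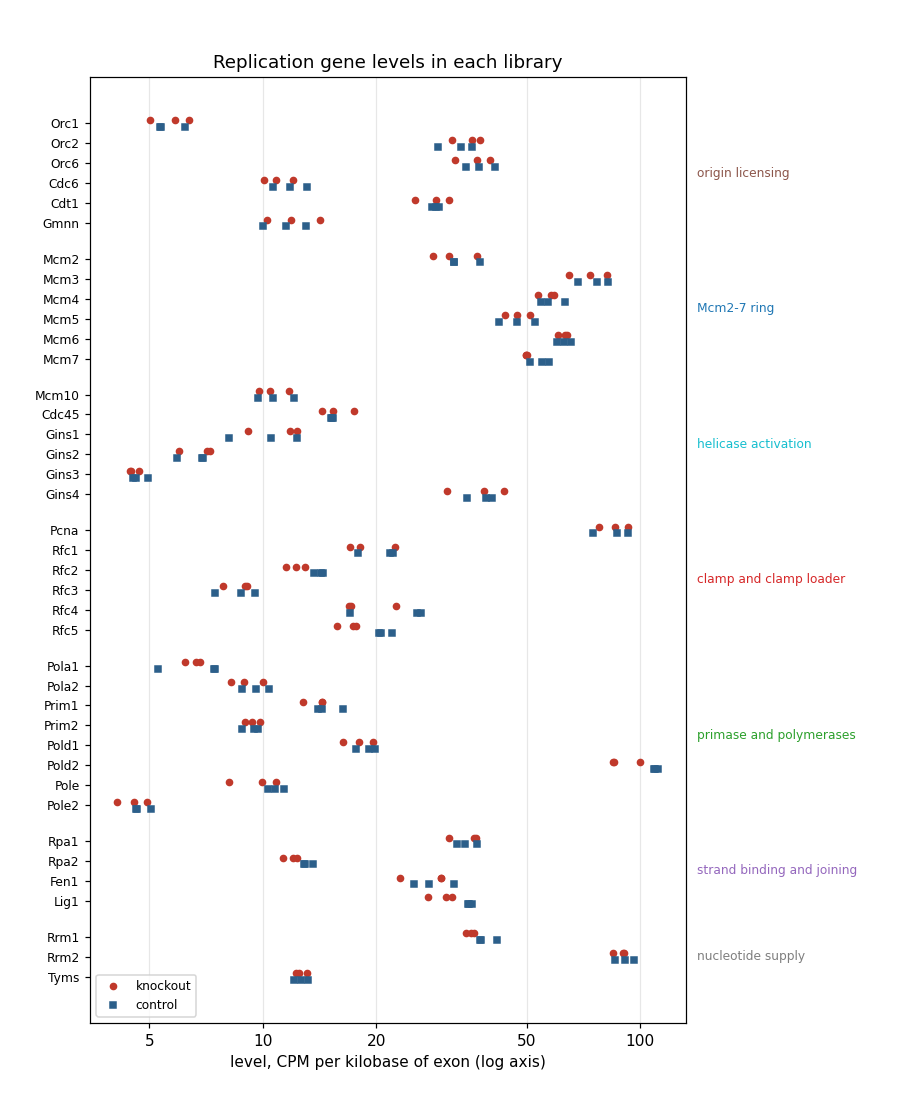
Level of each of the 39 replication genes per library, in CPM per kilobase of exon on a log axis, for 3 knockout libraries (circles) and 3 control libraries (squares). Levels run from below 5 CPM per kilobase for Gins3 and Pole2 to about 100 for Pold2, and within most genes the symbols of both groups overlap.

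Genes of helicase activation showed no detectable difference either. Cdc45, the helicase cofactor, averaged 55.2 ± 5.54 CPM in the knockouts and 53.4 ± 0.27 CPM in the controls (SD, n = 3 each). Mcm10, an initiation factor that acts with the assembled helicase, averaged 81.8 ± 7.66 CPM in the knockouts and 83.0 ± 9.17 CPM in the controls (SD, n = 3 each). Gins1 to Gins4 encode the GINS complex and had log2 changes of 0.10, 0.04, -0.05 and -0.02 in that order. They are transcripts of 1 complex at different levels, from 37.9 CPM per kilobase for Gins4 and 10.7 for Gins1 to 6.69 for Gins2 and 4.62 for Gins3, and the library ranges of these 4 genes did not overlap. Of the exonic bases of Gins2, 67.3% are shared with the antisense gene Gse1 at 45.1 CPM, so the level of Gins2 is uncertain. By joined exon length Gins3 and Pole2 had the lowest levels of the list, 4.62 and 4.65 CPM per kilobase over the 6 libraries, with ranges that overlapped. The longest transcript of Pole2 has 1706 bases against 2881 joined ones, so its rank depends on the length used. Gins3 held 12.11, 12.04 and 12.70 CPM in the knockout libraries, against 12.5, 12.3 and 13.5 CPM in the controls, which overlapped. The smallest edgeR adjusted p of the 6 genes was 0.939, and the widest interval was that of Gins1, from -0.30 to 0.51.

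The clamp and its loader had the lowest median log2 change of the 7 roles, -0.155. Pcna, the clamp itself, held 206, 186 and 223 CPM in the knockout libraries, against 208, 180 and 223 CPM in the controls. Its pseudogenes Pcna-ps1 and Pcna-ps2 held 0 and 189 counts over all libraries, and the groups of Pcna overlapped. Rfc5, a small ATPase subunit of the loader, had the smallest raw p of the 39 and held 80.8, 82.6 and 73.4 CPM in the knockout libraries, against 94.6, 103 and 96.1 CPM in the controls. The groups did not overlap, and the log2 change was -0.31 ± 0.10 (SE), with an interval from -0.53 to -0.09. The edgeR adjusted p was 0.343, or 0.064 with the block, so Rfc5 did not pass. Leaving out replicate 1 of both groups from the block fit brought it to 0.0429. Rfc2 held 72.7, 77.1 and 81.3 CPM in the knockout libraries, against 89.69, 85.98 and 91.18 CPM in the controls, with no overlap. Its log2 change was -0.21 ± 0.10 (SE; edgeR adjusted p = 0.521, or 0.177 with the block). The interval of Rfc2 ran from -0.43 to 0.01, and with the block from -0.38 to -0.04. Rfc4 held 26.3, 25.9 and 34.6 CPM in the knockout libraries, against 40.2, 26.0 and 39.3 CPM in the controls. Control replicate 2 lay among the knockout values of Rfc4, so its groups overlapped, and its log2 change of -0.28 ± 0.18 (SE) had the widest interval on the low side, from -0.69 to 0.13. With 1 library left out that change lay between -0.45 without control replicate 2 and -0.18 without control replicate 1. Over all 15 alternatives it lay between -0.45 and -0.10. In the like-numbered pairs the log2 ratios of Rfc4 were -0.61, -0.005 and -0.18. Rfc3 averaged 31.2 ± 2.44 CPM in the knockouts and 31.0 ± 3.74 CPM in the controls (SD, n = 3 each), a log2 change of 0.01 ± 0.13 (SE). Rfc1, the large subunit that opens the clamp, had a log2 change of -0.10 ± 0.13 (SE; edgeR adjusted p = 0.911).

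Of the 5 loader subunits, 2 had all knockouts below all controls, against 7.77% of all tested genes, and 3 overlapped. These are few genes, and differences between subunits were not tested. Between 10.7% and 15.1% of the exonic bases of Rfc2, Rfc4 and Rfc5 are shared with antisense genes, Lat2 at 13.7 CPM, Eif4a2 at 158 CPM and Wsb2 at 129 CPM, so their levels are uncertain. The large subunits of the alternative loaders, named after the values of Rfc2 and Rfc5 were seen, had log2 changes of 0.01 for Chtf18, 0.02 for Atad5 and -0.09 for Rad17.

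**Figure D3:**
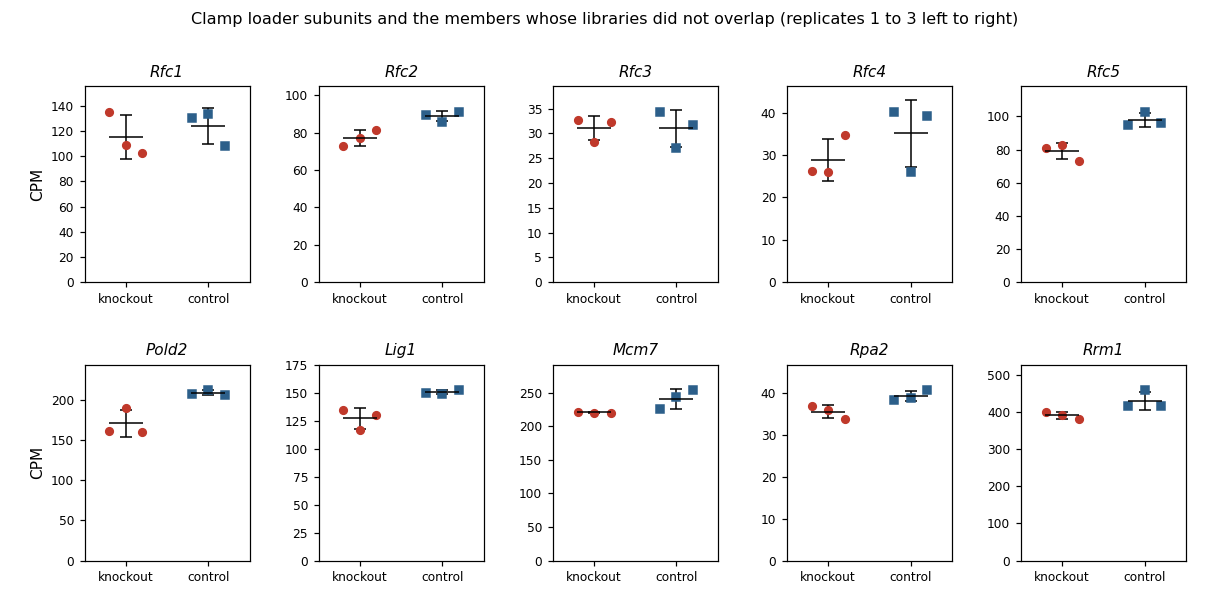
CPM per library for the 5 clamp loader genes and for the other members whose groups did not overlap (knockout circles left, control squares right, replicates 1 to 3 from left to right). Bars are the mean and SD of 3 libraries and every axis starts at 0. Rfc2, Rfc5, Pold2, Lig1, Mcm7, Rpa2 and Rrm1 have all knockout libraries below all controls, while Rfc1, Rfc3 and Rfc4 overlap.

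Among polymerase genes, Pold2 stood lowest. Pold2 encodes the second subunit of polymerase delta, the lagging-strand enzyme, and held 162, 190 and 160 CPM in the knockout libraries, against 208, 212 and 206 CPM in the controls. The groups did not overlap and the controls lay close together. The log2 change was -0.29 ± 0.10 (SE), with an interval from -0.52 to -0.06 and an edgeR adjusted p of 0.393, or 0.0727 with the block. By joined exon length Pold2 also had the highest level of the list, 90.0 ± 8.69 CPM per kilobase in the knockouts and 110.02 ± 1.62 in the controls (SD, n = 3 each). That rank depends on the length used. The longest transcript of Pcna has 1518 bases against 2400 joined ones, and that of Pold2 has 1646 against 1896. The catalytic subunit gene Pold1 was at 18.0 ± 1.66 CPM per kilobase in the knockouts and 18.9 ± 1.07 in the controls (SD, n = 3 each), with a log2 change of -0.07 ± 0.11 (SE). Pole, the catalytic subunit of the leading-strand polymerase epsilon, held 111, 121 and 90.5 CPM in the knockout libraries, against 120, 127 and 115 CPM in the controls. Its groups overlapped and its log2 change was -0.17 ± 0.12 (SE; edgeR adjusted p = 0.739). Knockout replicate 3 was its lowest library, and the change was -0.06 without it. Pole2, the second subunit of that enzyme, held 11.8, 13.1 and 14.2 CPM in the knockout libraries, against 13.3, 13.3 and 14.6 CPM in the controls, which overlapped. Polymerase alpha and primase, encoded by Pola1, Pola2, Prim1 and Prim2, had log2 changes of -0.04, -0.08, -0.10 and 0.01 in that order, and edgeR adjusted p-values of at least 0.865.

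At the lagging strand, Lig1, the ligase that joins Okazaki fragments, held 135, 117 and 130 CPM in the knockout libraries, against 150, 149 and 153 CPM in the controls. The groups did not overlap, and the log2 change was -0.24 ± 0.10 (SE; edgeR adjusted p = 0.45, or 0.109 with the block). Fen1, the flap nuclease that prepares the ends Lig1 joins, averaged 66.5 ± 9.19 CPM in the knockouts and 68.5 ± 8.60 CPM in the controls (SD, n = 3 each). Of its exonic bases 84.2% are shared with antisense genes, among them Tmem258 at 42.5 CPM, so its level is uncertain. Rpa1, the large subunit of the single-strand binding protein RPA, had a log2 change of 0.00 ± 0.11 (SE), and Rpa2, the middle subunit, -0.14 ± 0.11 (SE; edgeR adjusted p = 0.748). Rpa2 held 36.8, 36.0 and 33.8 CPM in the knockout libraries, against 38.4, 38.8 and 40.7 CPM in the controls, so the groups did not overlap.

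Genes of deoxynucleotide supply did not differ detectably. Rrm1, the large subunit of ribonucleotide reductase, held 398.5, 392.03 and 381.4 CPM in the knockout libraries, against 416, 459 and 415 CPM in the controls. It had the highest CPM of the list and its groups did not overlap, at a log2 change of -0.14 ± 0.10 (SE; edgeR adjusted p = 0.747). Rrm2, the S phase partner that sets the activity of the enzyme, held 250, 251 and 235 CPM in the knockout libraries, against 238, 253 and 267 CPM in the controls, with overlap. By joined exon length Rrm2 was the second gene of the list at 89.9 CPM per kilobase over the 6 libraries, while Rrm1 was at 37.3. The rank of Rrm2 also depends on the length used. So does the level of Rrm1, whose longest transcript has 5475 bases against 11012 joined ones. Tyms, thymidylate synthase, averaged 76.7 ± 2.61 CPM in the knockouts and 76.9 ± 3.33 CPM in the controls (SD, n = 3 each), and its interval of -0.22 to 0.21 was among the narrower ones.

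By position, the members lay on 14 chromosomes, and 7 of them, Mcm7, Rfc1, Rfc2, Rfc3, Rfc5, Pole and Tyms, on chromosome 5. Of these, 6 had log2 changes below 0 and the median was -0.125, while the 845 tested genes of chromosome 5 had a median of -0.000119. On chromosome 8, Mcm5, Orc6, Cdt1, Gins2, Gins3 and Gins4 had a median of -0.0157. The lowest median of the 14 chromosomes was -0.138, for Pold1, Lig1 and Rrm1 on chromosome 7. These are descriptions of few genes, with no test.

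Replicate 2 stood apart in the same direction in both groups for many of the genes. Over the 39 genes, deviations from the group means correlated between the replicate 2 libraries at 0.775. The numbering was not matched as well elsewhere. Knockout replicate 3 correlated at 0.606 with control replicate 1 and 0.555 with control replicate 3. Knockout replicate 1 correlated at 0.178 with control replicate 2 and 0.166 with control replicate 1. The correlation largest in size was -0.848, between knockout replicate 3 and control replicate 2. Knockout replicate 2 and control replicate 1 correlated at -0.702. Each library was measured against a mean that includes it, which ties these correlations together. They do not show that replicate 2 alone stood apart. Replicate 2 was the highest of its group in both knockout and control for 14 of the 39 genes (35.9%, against 19.7% of all tested genes) and the lowest in both for 11 (28.2%, against 18.1%). Those highest in replicate 2 included Mcm2, Mcm3, Mcm4, Mcm5, Mcm10, Orc1, Cdc6, Pold1, Pold2 and Pole, and those lowest included all 4 Gins genes, Gmnn, Orc6, Pcna, Rfc3, Rfc4 and Lig1. For Mcm2 replicate 2 stood above the mean of the other replicates by 0.32 in the knockouts and 0.23 in the controls on the log2 CPM scale. For Gins1 the same differences were -0.40 in the knockouts and -0.48 in the controls. Across the 39 genes these differences had a Spearman correlation of 0.732 between knockout and control, and 0.521 across the 13033 tested genes with a transcript sequence; genes share the same 6 libraries and are not independent. A test of the replicate number itself, chosen after seeing the data, called 0 of the 39 genes at an adjusted p under 0.05, against 4.85% of all tested genes (edgeR, block term). Transcript length moved with the pattern: its Spearman correlation with the replicate 2 difference was 0.351 in the knockouts and 0.549 in the controls over the 39 genes, and 0.205 in the knockouts and 0.201 in the controls over all tested genes. The same correlations for GC content over the 39 genes were 0.379 in the knockouts and 0.117 in the controls. Over all tested genes those for GC content were 0.253 in the knockouts and 0.0886 in the controls. The part of length and GC content in the pattern was not tested.

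**Figure D4:**
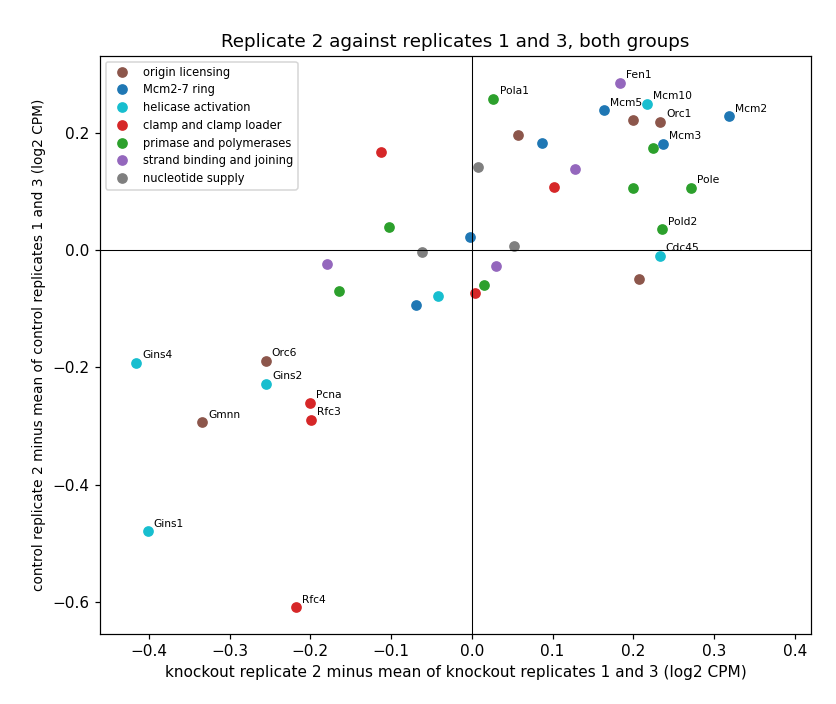
Difference of replicate 2 from the mean of replicates 1 and 3 in log2 CPM, in the knockouts (horizontal axis) and the controls (vertical axis), 1 point per replication gene coloured by role. Mcm2, Mcm3 and Mcm5 lie at the upper right and Gins1, Gmnn and Rfc4 at the lower left, with a Spearman correlation of 0.732 over 39 genes.

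Other genes of the pathway likewise gave no call. Of 37 further origin and replisome genes, 0 passed the test in either direction, with or without the block, and 24 had log2 changes below 0 (median -0.05). Mcm8, a helicase paralog that works in recombination, averaged 14.4 ± 1.78 CPM in the knockouts and 21.5 ± 2.93 CPM in the controls (SD, n = 3 each), a log2 change of -0.57 ± 0.15 (SE; edgeR adjusted p = 0.244, or 0.0654 with the block). Its partner gene Mcm9 had a log2 change of -0.42 ± 0.17 (SE; edgeR adjusted p = 0.431). Orc5, a subunit of the origin recognition complex, averaged 24.8 ± 5.19 CPM in the knockouts and 34.1 ± 2.76 CPM in the controls (SD, n = 3 each), with an edgeR adjusted p of 0.369, or 0.0645 with the block. Orc3, another core subunit, had a log2 change of -0.26 ± 0.13 (SE).

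Of 20 further genes of nucleotide supply, 0 passed and 16 had log2 changes below 0 (median -0.10). The lowest raw p was that of Dctpp1, a pyrophosphatase that clears unwanted dCTP, with a log2 change of -0.33 ± 0.10 (SE; edgeR adjusted p = 0.328), followed by Dtymk, thymidylate kinase, at -0.29 ± 0.11 (SE). Of 37 E2F, Rb and G1/S control genes, 0 passed and 24 lay below 0 (median -0.05). Fbxo5, which encodes the APC/C inhibitor Emi1, had the lowest raw p among them, with no overlap between the groups and a log2 change of -0.23 ± 0.11 (SE; edgeR adjusted p = 0.518). Cdk4, the G1 kinase, averaged 607 ± 36.5 CPM in the knockouts and 711 ± 44.8 CPM in the controls (SD, n = 3 each; edgeR adjusted p = 0.523), while Cdk6 had a log2 change of 0.26 ± 0.13 (SE; edgeR adjusted p = 0.536).

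Of 30 mitotic genes, which peak later in the cycle, 0 passed, 26 lay below 0 and the median log2 change was -0.05. Ccnb2, a mitotic cyclin, had the lowest raw p among them, with a log2 change of -0.31 ± 0.14 (SE; edgeR adjusted p = 0.498). Of 30 homologous recombination and Fanconi genes, 0 passed, 23 lay below 0 and the median was -0.12, and the knockouts all lay below the controls for 9 of them (30% of the list, against 7.77% of all tested genes). Fancd2, which is activated at stalled forks, was the one with the lowest raw p (log2 change -0.45 ± 0.14, SE; edgeR adjusted p = 0.328, or 0.0589 with the block). Of 13 checkpoint genes, 0 passed and 8 lay below 0. H2afx, the histone variant phosphorylated at breaks and stalled forks, averaged 200 ± 18.6 CPM in the knockouts and 153 ± 17.4 CPM in the controls (SD, n = 3 each), a log2 change of 0.39 ± 0.12 (SE; edgeR adjusted p = 0.328, or 0.0695 with the block). No difference between these lists and the replication genes was tested.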

How the data were processed

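Per the labels, total RNA was sequenced from 3 knockout and 3 control libraries of one mouse sarcoma line. The deposited table gives raw counts per Ensembl identifier, not normalized. The tools listed are featureCounts, STAR and DESeq, with build mm10, per the submitters' processing notes. Their versions, the annotation release, the strand setting and the handling of multi-mapped reads were not given in the sources used here. Of 55471 identifiers, 55230 matched GENCODE M21 (GRCm38, the assembly mm10 names), which gave symbols, coordinates and exon lengths; the rest held at most 0.00138% of any library. Libraries of a group differed by more than sampling noise (chi-square per degree of freedom at least 19.15).

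edgeR 4.0.16 (R 4.3.3) was run over all 13044 genes left by edgeR's low-count filter: TMM scaling, the two-sided quasi-likelihood test of knockout against control, Benjamini-Hochberg adjustment and a threshold of 0.05. Logged CPM used a prior count of 2. DESeq2 1.42.0, limma 3.58.1 (voom), other scalings and filters, left-out libraries and the replicate number as a block were alternatives, and the steps were tested on simulated data. The labels do not say what a replicate number stands for. Deviations from the group means correlated between like-numbered libraries over all tested genes (0.15, 0.464 and 0.383). The numbers were therefore treated as pairs in the block fit and in the ratios of like-numbered libraries. The main test and its intervals did not use them. Block values are given for some genes only. The p-values with the block thus rest on a pairing taken from these same data. Over the 39 genes knockout replicate 3 correlated at 0.606 with control replicate 1 and 0.555 with control replicate 3. Members and lists were chosen with earlier results of these data known. Named genes were the 39 members and, from each other list, up to 4 with the smallest raw p; 3 alternative loader genes were added after the values of Rfc2 and Rfc5 were seen; per-library values were given for the MCM ring, the 6 smallest raw p and the extreme levels, and for other members after their values were seen.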

Additional observations from a re-analysis of the deposited data

How the results depend on the processing

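The statement that none of the 39 replication genes passed an adjusted p under 0.05 held in 14 of 15 alternatives. The exception was the replicate block without replicate 1 of both groups, where 1 gene, Rfc5, was called lower (adjusted p = 0.0429). The number of all genes called was 0 in the test without the block, 298 with the replicate block (187 higher, 111 lower), 133 by DESeq2 and 74 without a filter on low counts. It lay between 0 and 31 when 1 library was left out, the 31 coming without knockout replicate 1, and was 714 without replicate 1, 194 without replicate 2 and 0 without replicate 3 in the block fit. At an unadjusted p under 0.05 the test without the block had 718 genes higher and 588 lower. The replicate block ended or made no other call among the replication genes, and their median log2 change was -0.04 with it. That median lay between -0.07 without control replicate 1 and -0.03 without knockout replicate 3, and in the block fit between -0.07 without replicate 1 and -0.02 without replicate 2. The share of the 39 genes below 0 was 84.6% without a filter on low counts and 59.0% with the block and without replicate 2; it lay between 66.7% and 76.9% when 1 library was left out, and the cause was not tested. The sign of single changes, most of them near 0, differed from the reported one in 75 of 585 values, none of them in a called gene; the 15 members below 0 under all 15 alternatives were Mcm7, Cdc6, Gins3, Rfc2, Rfc4, Rfc5, Pola2, Prim1, Pold1, Pold2, Pole, Pole2, Rpa2, Lig1 and Rrm1, and Orc2 lay above 0 in all. With 3 libraries per group, an exact permutation test of 1 gene cannot go below 0.1.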
